A study of Mus musculus with 6 samples.

Results

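The genes described here are the feedback regulators and the transcriptional output of the RAS-ERK pathway in cultured mouse fibroblasts. They were chosen by name, 42 symbols in all, and each was read by the probeset annotated to that symbol alone, or by the one with the highest mean signal where there were several. For 38 of the 42 such a probeset was found, and all 38 were above the detection level on all 6 arrays and were tested, among 15145 genes tested in all. Hras, its older symbol Hras1, Areg and Hmga1 were not analysed here.

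RAS proteins are membrane-bound switches that, when loaded with GTP, start a kinase cascade of RAF, MEK and ERK. Active ERK switches on immediate early genes such as Fos and Egr1 and later genes such as Fosl1 and Ccnd1. It also induces its own brakes, the dual-specificity phosphatases that remove phosphate from MAP kinases and the Sprouty and SPRED proteins that act upstream of the kinases. Transcripts of these brakes are commonly read as a measure of ERK output, and in fibroblasts an activated RAS is a classical trigger of a proliferative arrest that involves ARF.

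The study compared 3 arrays of mouse embryonic fibroblasts carrying the control hairpin construct shSCR with 3 arrays of such cells carrying the hairpin shARF. A hairpin RNA lowers the messenger RNA it matches, and ARF is a tumour suppressor encoded at Cdkn2a. The series title calls the cells of both groups dp53R and all 6 sample titles carry the word Ras, so both groups share whatever those names stand for. The RAS gene or allele, the p53 state, the treatment time and the age of the cells are not given in the sources used here. The titles call the replicates biological but do not tie them to separate cultures or animals, so the spread behind each p-value may be partly technical.

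Each array gave a linear RMA signal per probeset, with medians of 41.97 to 42.86 and detection levels, the 25th percentile of each array, of 14.1 to 14.9. The targeted gene Cdkn2a gave 535, 539 and 516 on the shSCR arrays and 315, 254 and 286 on the shARF arrays, and it fell by 0.90 on the log2 scale (limma, adjusted p = 0.00459). All 10 fibroblast markers, among them collagen genes, Vim and Fn1, were above the detection level on every array. Of 7 macrophage markers 2 were, and Ptprc, Csf1r, Adgre1, Itgam and Lyz2 were below it on every array. Of 6 lymphocyte markers measured 2, Cd3e and Cd8a, were above it on every array, and of 6 endothelial markers 3 were. A signal above the detection level therefore does not by itself show that a gene was expressed. Of 7 epithelial markers 4 were above the detection level on every array. The summed signal of all 7 was 258 to 298 on shSCR arrays, against 362 to 503 on shARF arrays. Of the 6 tested, 5 had positive differences and 1, Cldn4, a negative one of -0.23. The keratin gene Krt18 rose (limma, adjusted p = 0.0370), while Cdh1 was below the detection level on all arrays. The part of these markers in the results below was not tested. In whole-culture RNA, fewer cells with a transcript and less transcript per cell cannot be told apart.

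Short stretches of promoter show elements that factors of this pathway and its neighbours are known to bind. RefSeq sequences (GRCm38.p6) were matched for 30 of the 42 symbols, and the 250 bases upstream of each start were searched on both strands. None was matched for the tested members Ccnd1, Dusp4, Egr1, Egr3, Ereg, Etv4, Fosl1, Hbegf, Ier2, Phlda1 and Spry4, so these were not searched. Each of the 5 stretches printed holds a match in a tested member. Other such matches, among them the EGR motifs of Dusp2, Dusp16, Fosl2 and Plaur, are not printed. They run 5′ to 3′ on the strand of the gene, with the match in capitals.
Plaur, AP-1 motif, chr7:24462389-24462445, plus strand: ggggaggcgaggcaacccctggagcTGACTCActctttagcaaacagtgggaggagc
Dusp1, CRE, chr17:26508583-26508640, minus strand: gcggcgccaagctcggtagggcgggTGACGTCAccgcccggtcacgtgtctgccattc
Epha2, CRE, chr4:141301163-141301220, plus strand: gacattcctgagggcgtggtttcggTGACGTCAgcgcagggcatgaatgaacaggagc
Dusp5, CArG box, chr19:53529038-53529097, plus strand: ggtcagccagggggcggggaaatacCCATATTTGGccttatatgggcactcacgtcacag
Fosb, EGR motif, chr7:19310062-19310120, minus strand: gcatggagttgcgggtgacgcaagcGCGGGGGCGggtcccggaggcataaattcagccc

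The AP-1 motif, searched as TGANTCA, is bound by FOS and JUN proteins. It was found in 1 of the 30 members matched, Plaur, 69 bases upstream of the start, and in 7.82% of all 27025 genes with a promoter (6.75% of their 32851 promoters). The cyclic AMP response element (CRE), searched as TGACGTCA, stood in the promoters of Dusp1, Epha2 and Areg, 3 of 30, and in 1.77% of all genes (1.55% of promoters). CArG boxes, bound by serum response factor, were found in 2 of 30, Dusp5 and Egr2, and in 1.62% of all genes (1.47% of promoters). In Dusp5 there were 2, starting 82 and 72 bases upstream. The EGR motif, searched as GCGNGGGCG, was found in 6 of 30, namely Fosb, Fosl2, Dusp2, Dusp16, Plaur and Hmga1, and in 5.33% of all genes (4.70% of promoters). The ETS letters searched, CCGGAAG, were in 0 of the 30 and in 7.83% of all genes (6.91% of promoters). A match describes letters and is no evidence of binding.

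No member passed the test between shARF and shSCR. With limma at an adjusted p under 0.05 the count was 0 of 38, where 4.01% of all genes were called, 1.62% higher and 2.38% lower. Before adjustment, 12 of 38 (31.6%) had a limma p under 0.05, of which 5 were higher and 7 lower in shARF, where 22.2% of all genes met that mark, 8.76% higher and 13.4% lower. SAM, the test that the series design names, called 1 of 38 members, Ereg, lower, and 997 of all 15145 genes. The groups did not overlap for 11 of 38 members (28.9%), 4 higher and 7 lower, and for 28.6% of all genes, 12.0% higher and 16.6% lower. Over the members, differences had a median of -0.03 and a median size of 0.11 on the log2 scale, and over all genes -0.01 and 0.10.

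The members' differences ranged from -0.39 for Ereg to 0.27 for Ier2, with 17 positive and 21 negative. The 95% intervals of 37 of the 38 lay within 0.5 either way, and that of Ereg reached -0.61. Of all 15145 genes tested, 13023 had intervals within 0.5. These intervals rest on the spread between arrays, which may be partly technical. An interval that includes 0 does not show that a gene was the same in both groups.

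**Figure D1:**
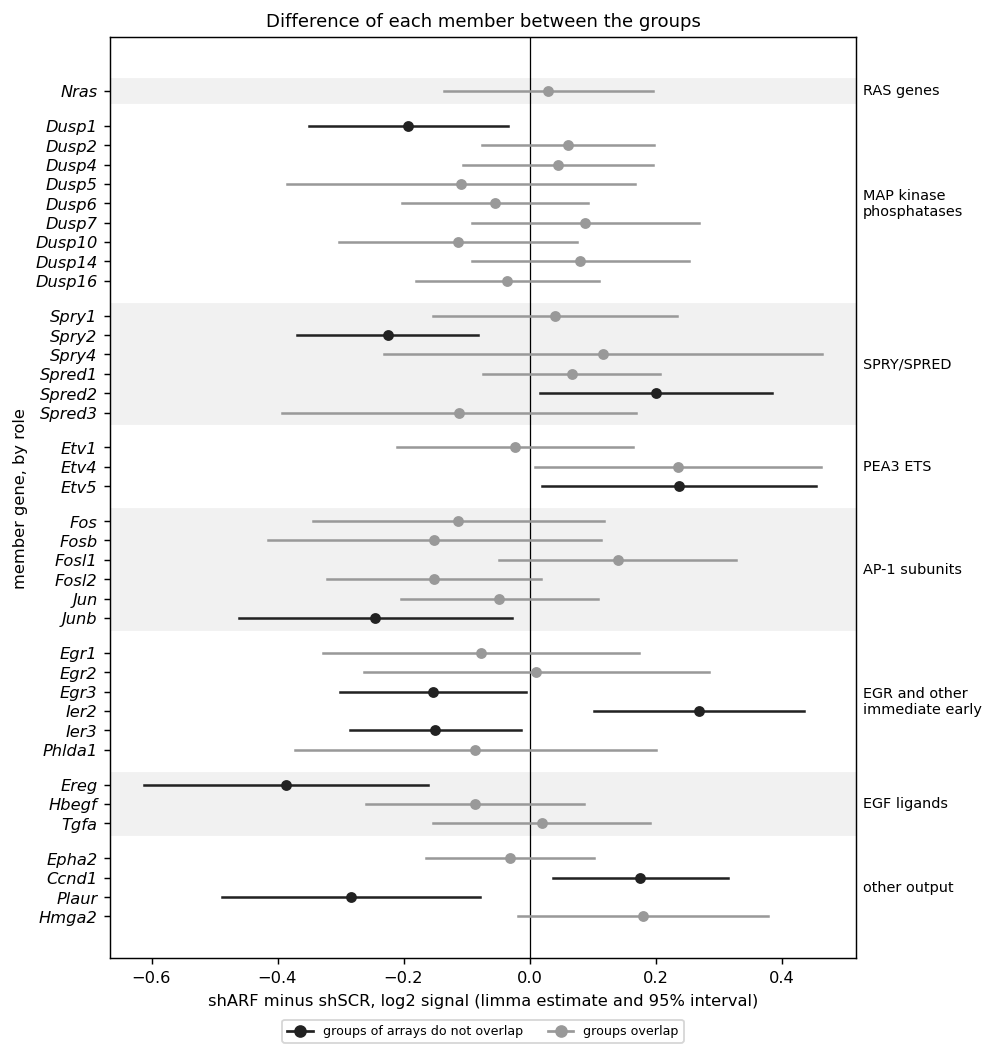
Difference of each of the 38 tested members, shARF minus shSCR, in log2 signal, by role. Points are limma estimates and bars are 95% intervals. Dark symbols mark the 11 members (28.9%) whose groups of 3 arrays did not overlap, against 28.6% of all genes. Ereg lies furthest to the left at -0.39 and Ier2 furthest to the right at 0.27.

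In what follows, signals by array are in the order of replicates 1, 2 and 3, and an error after a difference is its SE. The RAS gene that could be read was well above the detection level. Nras, which encodes one of the RAS switches, gave 899, 888 and 938 in shSCR and 918, 998 and 869 in shARF. The groups overlapped, and both the highest and the lowest value were on shARF arrays. The difference was 0.03 ± 0.0706, with a 95% interval of -0.14 to 0.20 (limma, adjusted p = 0.847). The titles do not say which RAS is meant.

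**Figure D2:**
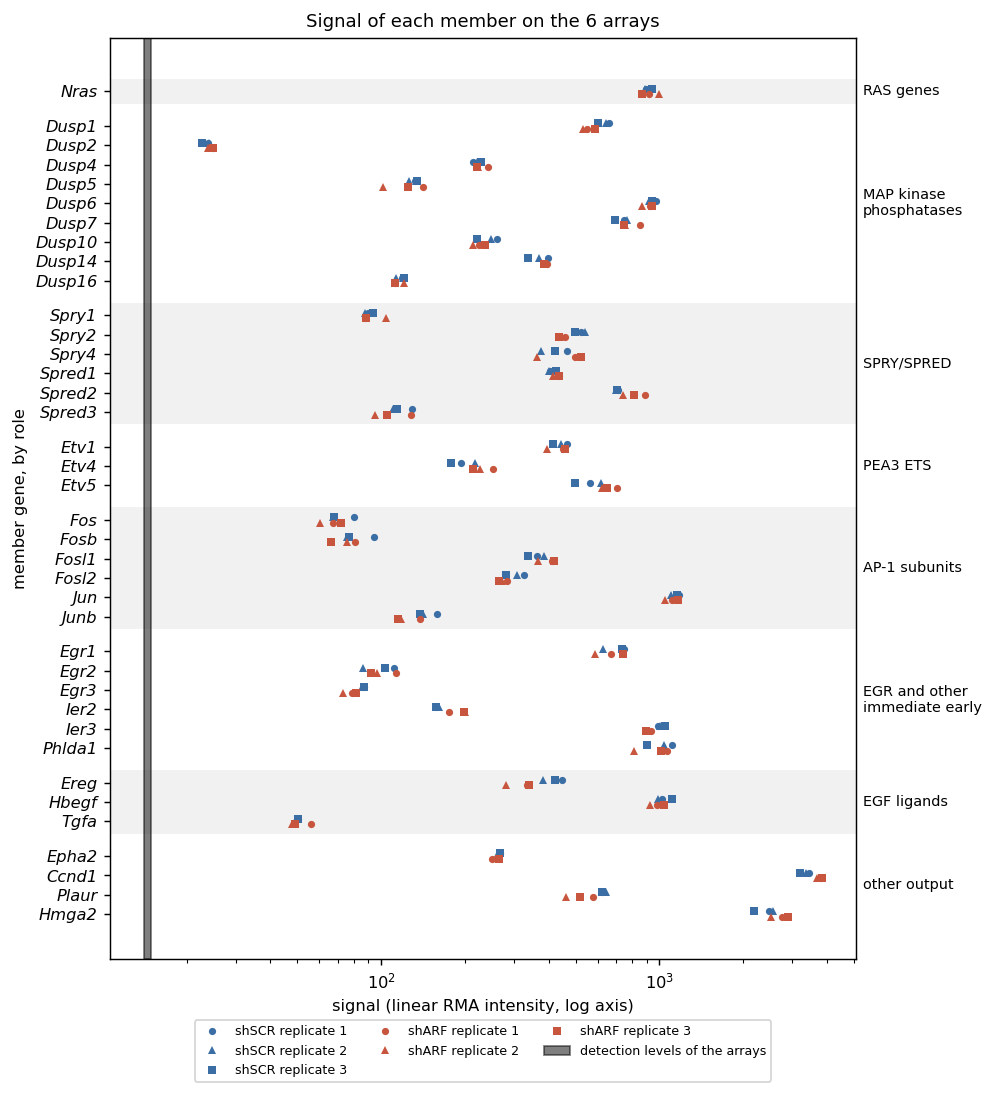
Linear signal of each tested member on each of the 6 arrays, on a log axis, with the detection levels of the arrays as the dark band. All 38 members lie above the band on every array, the closest being Dusp2, whose lowest array read 22.8. Lying above the band does not by itself show that a gene was expressed. Rows come from different probes and are not comparable as levels.

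Of the dual-specificity phosphatases, the off-switches of MAP kinases, 0 of 9 passed, 4 differences were positive and 5 negative, and the median was -0.04. Dusp6, the cytoplasmic phosphatase specific for ERK, gave 974, 918 and 941 in shSCR and 925, 863 and 941 in shARF. The groups overlapped, at a difference of -0.06 ± 0.0628 with a 95% interval of -0.20 to 0.09 (limma, adjusted p = 0.658). Dusp7, its close relative, gave 746, 765 and 694 against 851, 752 and 744, a difference of 0.09 ± 0.0768. For that gene shARF replicate 1 alone stood above all control arrays.

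Groups separated for 1 of the 9 phosphatases among the members, Dusp1, against 28.6% of all genes. Dusp1 is a nuclear phosphatase of immediate early type, and its promoter holds a CRE. It gave 659.9, 642 and 603 in shSCR and 551, 531 and 585 in shARF. Every shARF array lay below every shSCR array, at -0.19 ± 0.0673 (limma, adjusted p = 0.170). The others were Dusp2, Dusp4 and Dusp5, which act in the nucleus, Dusp10 and Dusp16, which act mainly on p38 and JNK, and the small atypical Dusp14. Their differences lay between -0.11 for Dusp10 and 0.08 for Dusp14, and the groups overlapped in each. Dusp5, the gene with CArG boxes, gave 132, 126 and 135 against 142, 102 and 124, so that its lowest and its highest array were both shARF.

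The Sprouty and SPRED genes pointed in different directions, with 0 of 6 passing, 4 positive, 2 negative and a median of 0.05. Spry2, an inhibitor of growth factor signalling to RAS, gave 525, 538 and 497 in shSCR and 459, 439 and 436 in shARF. The groups did not overlap, at a difference of -0.23 ± 0.0611 that limma did not call (adjusted p = 0.100). It passed in 2 of 16 alternative settings, which gave adjusted p from 0.0308 to 0.331.

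Spred2, a membrane-associated inhibitor of RAS-ERK signalling, gave 712, 699.5 and 704 in shSCR and 889, 737 and 813 in shARF. Its shSCR arrays were tightly grouped and all 3 shARF arrays lay above them, at 0.20 ± 0.0785 (limma, adjusted p = 0.209). The other probeset of Spred2 differed by 0.04 ± 0.0853, with groups that overlapped (limma, adjusted p = 0.841), so the pair disagreed in size. Spry4 had the widest interval of this group, -0.23 to 0.46, and gave 465, 376 and 423 against 498, 363 and 521. Both its lowest and its highest value were on shARF arrays, and replicate 2 was the lowest array in either group. Spry1, Spred1 and Spred3 differed by 0.04, 0.07 and -0.11, and their groups overlapped.

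Of the PEA3 factors, ETS-family transcription factors induced downstream of ERK, 0 of 3 passed. Etv5 gave 564, 615 and 499 in shSCR and 705, 621 and 648 in shARF. The groups did not overlap, though replicate 2 of shSCR and of shARF lay close together. The difference was 0.24 ± 0.0926 (limma, adjusted p = 0.209), and the other probeset of Etv5 gave 0.29 ± 0.0845 (limma, adjusted p = 0.121).

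Etv4 gave 194, 218 and 178 in shSCR and 252, 227 and 214 in shARF. One pair of arrays crossed, shARF replicate 3 lying below shSCR replicate 2, at 0.24 ± 0.0966 (limma, adjusted p = 0.227). Etv1 gave 464, 443 and 415 against 449, 395 and 456, which overlapped, at -0.02 ± 0.0798, and its other probeset gave 0.04.

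The AP-1 subunits, FOS and JUN proteins that pair to bind AP-1 sites, gave 5 negative differences of 6 and a median of -0.13, and 0 passed. Junb, an immediate early JUN protein, gave 158, 142 and 138 in shSCR and 138, 118 and 115 in shARF. The groups did not overlap by a narrow margin, 138.1 on the lowest shSCR array against 137.7 on the highest shARF array, at -0.24 ± 0.0923 (limma, adjusted p = 0.196). Jun gave 1178, 1100.4 and 1156 against 1106, 1047 and 1169.8, and the groups overlapped at -0.05 ± 0.0667.

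Fosl1, which encodes FRA1, a FOS protein that accumulates under sustained ERK activity, was the AP-1 subunit with a positive difference. It gave 362, 385 and 338 in shSCR and 413, 366 and 417 in shARF. Only shARF replicate 2 fell among the control values, at 0.14 ± 0.0802 (limma, adjusted p = 0.368). Fosl2, which encodes FRA2, Fosb and Fos differed by -0.15, -0.15 and -0.11, and their groups overlapped.

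Of the EGR factors and other immediate early genes, transcripts that appear soon after a stimulus, 0 of 6 passed. In 3 of the 6 the groups did not overlap, Ier2 higher and Ier3 and Egr3 lower, against 28.6% of all genes. Ier2, a nuclear immediate early protein, gave 157, 161 and 158 in shSCR and 175, 200.5 and 198 in shARF. All shARF arrays were above the tight shSCR group, by 0.27 ± 0.0710, or 1.20-fold (limma, adjusted p = 0.0947). It passed in 2 of 16 alternatives, with adjusted p from 0.0456 to 0.290 over the 16.

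Ier3, an immediate early gene linked to ERK signalling and cell survival, gave 988, 1007 and 1047 in shSCR and 933, 916 and 893 in shARF. All shARF arrays were lower, at -0.15 ± 0.0576 (limma, adjusted p = 0.205). Egr3, a zinc finger factor of the EGR family, gave 86.7, 85.3 and 86.7 against 78.5, 73.0 and 81.2, at -0.15 ± 0.0629 (limma, adjusted p = 0.226). Its shSCR arrays were nearly equal and all shARF arrays lay below them.

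Egr1, the prototype of the family, gave 744, 625 and 736 in shSCR and 669, 589 and 740.4 in shARF, at -0.08 ± 0.107. Replicate 2 was the lowest array of each group, and the groups overlapped. Phlda1, which encodes a protein with a pleckstrin homology-like domain, gave 1109.6, 1041 and 905 against 1062, 811 and 1015, at -0.09 ± 0.122. Egr2 differed by 0.01, with an interval of -0.26 to 0.28.

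Of the EGF family ligands 0 of 3 passed. Ereg, the gene of epiregulin, a ligand of the EGF receptor, had the smallest p of all members. It gave 445, 382 and 422 in shSCR and 335, 282 and 339.6 in shARF. Every shARF array was below every shSCR array, at -0.39 ± 0.0960, a level 1.31-fold lower in shARF, and limma did not call it (adjusted p = 0.0809). Ereg passed in 4 of 16 alternatives and missed in 12, among them all 6 fits without 1 array, with adjusted p from 0.0153 to 0.205.

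Hbegf, the gene of heparin-binding EGF, gave 1026, 992 and 1110.1 in shSCR and 982, 923 and 1040.2 in shARF, at -0.09 ± 0.0737. Tgfa, transforming growth factor alpha, gave 50.4, 49.6 and 50.4 against 55.8, 47.9 and 49.2, at 0.02 ± 0.0732. Both overlapped between groups, and whether the ligands differ from each other was not tested.

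Of the other output genes 0 of 4 passed, and Ccnd1 and Plaur had groups that did not overlap, in opposite directions. Over all genes, 28.6% had groups that did not overlap. Ccnd1 encodes cyclin D1, which couples ERK activity to entry into the cell cycle, and gave 3446, 3373 and 3209.7 in shSCR and 3808, 3679 and 3840.2 in shARF. All shARF arrays were higher, by 0.18 ± 0.0592, or 1.13-fold (limma, adjusted p = 0.157). It passed in 1 of 16 alternatives, with adjusted p from 0.0122 to 0.364.

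Plaur encodes the urokinase receptor, and its promoter holds the AP-1 and EGR motifs. It gave 624, 641 and 620.1 in shSCR and 576, 461 and 517 in shARF. All shARF arrays were lower and more spread, at -0.28 ± 0.0873 (limma, adjusted p = 0.133). Plaur passed in 1 of 16 alternatives, with adjusted p from 0.0368 to 0.366.

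Hmga2, an architectural chromatin protein of embryonic and transformed cells, gave 2473, 2558 and 2197 in shSCR and 2770.1, 2521 and 2896 in shARF, at 0.18 ± 0.0845 (limma, adjusted p = 0.283). Its groups overlapped, since shARF replicate 2 lay below shSCR replicate 2. Epha2, an ephrin receptor whose gene responds to ERK, gave 267, 262 and 268 against 251, 264 and 265, at -0.03 ± 0.0568. Its promoter holds a CRE like that of Dusp1, and its groups overlapped.

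Members also varied between arrays of the same group. On shARF replicate 2, 23 of the 38 members (60.5%) had their lowest shARF value, where 32.0% of all genes had theirs. Relative to the shSCR mean, the members' median was -0.12 on that array, against 0.023 and -0.0037 on shARF replicates 1 and 3, and over all genes it was -0.0020 there. In shSCR the lowest array was replicate 2 for 19 of 38 members and replicate 3 for 16 of 38, against 30.8% and 35.3% of all genes. The members' medians were 0.021, -0.014 and -0.014 on shSCR replicates 1, 2 and 3, so replicates 2 and 3 were alike by that measure. Replicate 1 was lowest for 3 of 38 (7.89%) in shSCR and 4 of 38 (10.5%) in shARF, against 33.9% and 32.2% of all genes. Without shARF replicate 2 the count called was still 0, and Dusp5, Egr1, Phlda1, Spry1, Nras and Etv1 changed sign. The median SD of members was 0.07 in shSCR and 0.10 in shARF on the log2 scale, against 0.09 and 0.10 over all genes.

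**Figure D3:**
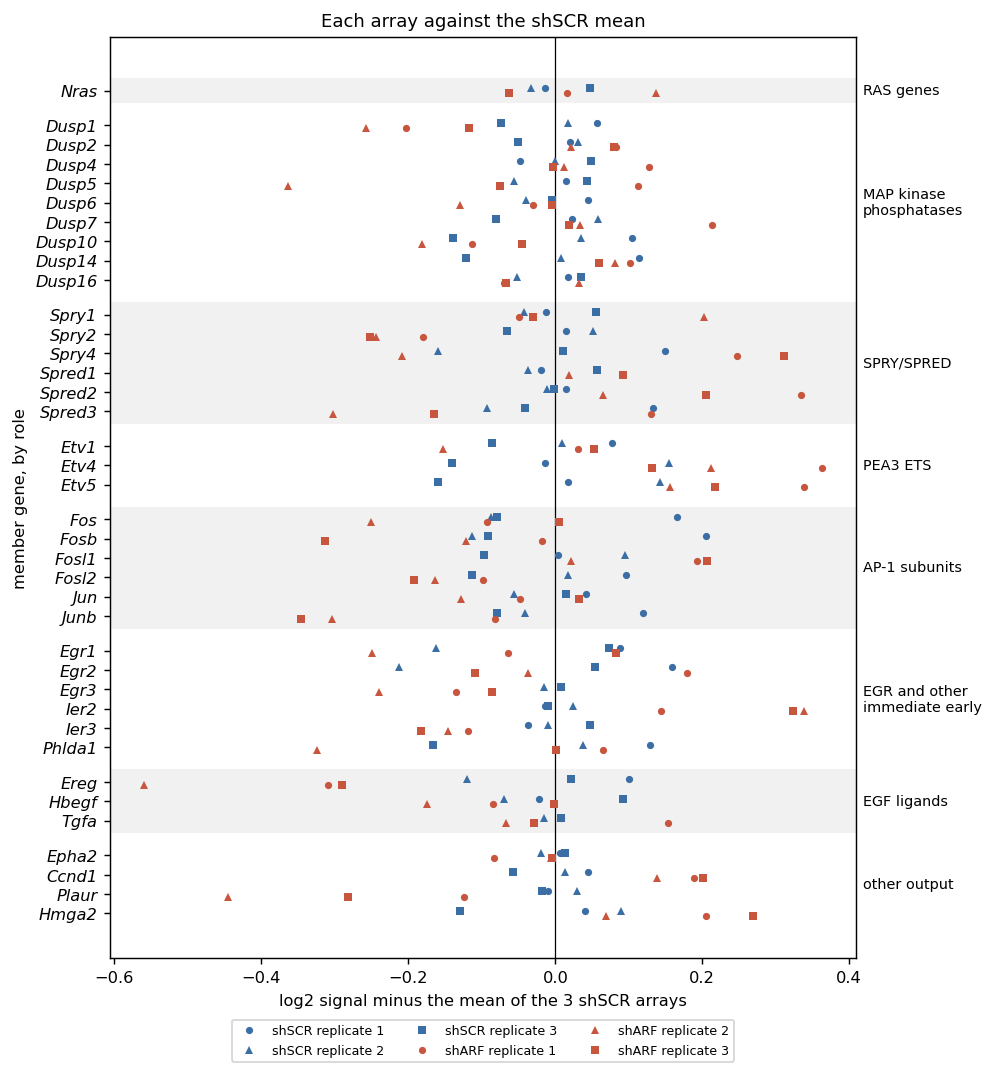
Log2 signal of each tested member on each array, minus the mean of the 3 shSCR arrays, by role. Blue symbols are shSCR and red symbols shARF, with triangles for replicate 2. The red triangle lies furthest left among the red symbols for 23 of 38 members, and Ereg, Plaur and Spry2 show all red symbols to the left of all blue ones.

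The low values on shARF replicate 2 were not shared by every role. For the EGR and other immediate early genes the shARF arrays had medians, again against the shSCR mean, of 0.00076, -0.19 and -0.04, and for the EGF ligands -0.09, -0.17 and -0.03. For the AP-1 subunits they were -0.07, -0.15 and -0.09, and for the Sprouty and SPRED genes 0.11, -0.10 and 0.03. The other output genes were at 0.05, 0.03 and 0.10, and Nras at 0.02, 0.14 and -0.06. The phosphatases were at 0.08, 0.01 and -0.0047, and the PEA3 factors at 0.34, 0.16 and 0.13, where shSCR replicate 2 stood at 0.14. Heat shock genes, a check on handling, were at -0.0067, 0.11 and 0.09, and limma called 0 of 6, also at an unadjusted p under 0.05. Of all genes, 4.01% were called and 22.2% had an unadjusted limma p under 0.05.

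Components of the RAS-ERK pathway, upstream or downstream of ERK, that are not among the members held 3 calls, all lower in shARF. Of 38 tested receptors, adaptors, exchange factors, GTPase-activating proteins and kinases, 0 rose, 3 fell and 35 did not pass in limma. An unadjusted limma p under 0.05 was met by 12 (31.6%), the same count as among the 38 members, and the median difference was 0.01. Over all genes tested, limma called 1.62% higher and 2.38% lower, and 22.2% had an unadjusted p under 0.05. Egfr, the receptor of epiregulin, gave 343, 334 and 343 in shSCR and 279, 253 and 286 in shARF, and fell by 0.32 on the log2 scale (SE 0.0671, limma, adjusted p = 0.0494). Fgfr2, a fibroblast growth factor receptor, fell from 95.5, 93.7 and 102 to 67.9, 80.1 and 66.3 (limma, adjusted p = 0.0408). Rps6ka5, which encodes the kinase MSK1 downstream of ERK, fell from 29.8, 32.4 and 39.2 to 23.4, 23.9 and 22.4 (limma, adjusted p = 0.0416). In each of the 3 genes all shARF arrays were below the shSCR arrays. The calls were close to the threshold: Egfr passed in 5 of 16 alternatives, with adjusted p of 0.0105 to 0.181, Fgfr2 in 8 of 16, with 0.0157 to 0.139, and Rps6ka5 in 6 of 15, with 0.0192 to 0.174. All 3 lost the call with no filter on dim probesets, at 0.0833, 0.0648 and 0.0636, and on leaving out 1 array Egfr and Rps6ka5 lost it in all 6 fits and Fgfr2 in all but that without shARF replicate 2.

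Sos2, an exchange factor that loads RAS with GTP, had the largest positive difference of that list and did not pass. It gave 138, 136 and 145 in shSCR and 186, 179 and 161 in shARF, at 0.33 ± 0.0734 (limma, adjusted p = 0.0603). No array of one group reached the other. Sos2 passed in 6 of 16 alternatives, with adjusted p of 0.0236 to 0.256. Its paralogue Sos1 differed by -0.22 ± 0.0848, with groups that overlapped (limma, adjusted p = 0.196). Of the RAF and MEK kinase genes tested, Braf, Map2k1 and Map2k2 differed by 0.01, 0.06 and -0.08, with groups that overlapped. Araf differed by -0.19 ± 0.0808, with all shARF arrays below the shSCR arrays, and did not pass (limma, adjusted p = 0.235).

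Nuclear factors linked to ERK and not among the members held 2 further falls. Of 13 tested, 0 rose, Srf and Etv3 fell and 11 did not pass in limma, where 2.38% of all genes fell. An unadjusted limma p under 0.05 was met by 3 (23.1%), against 22.2% of all genes, and the median difference was 0.05. Srf encodes serum response factor, which with ETS partners drives Fos and Egr genes. It fell from 449, 427 and 401 in shSCR to 321, 292 and 300.1 in shARF (limma, adjusted p = 0.0161), and Etv3, an ETS repressor, from 145, 147 and 131 to 105, 113 and 105 (limma, adjusted p = 0.0341). Srf passed in 11 of 16 alternatives, with adjusted p of up to 0.134, and lost the call without shSCR replicate 1 or 2, without shARF replicate 2 or 3, and with both replicate 2 arrays left out. Etv3 passed in 7 of 16, with 0.0123 to 0.148, and lost the call in all 6 fits without 1 array and, at 0.0574, with no filter.

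Elk3, an ETS partner of serum response factor, differed by 0.17 ± 0.0616 (limma, adjusted p = 0.183). Myc gave 1728, 1736 and 1605 against 1503, 1602 and 1586, which did not overlap, at -0.11 ± 0.0630 (limma, adjusted p = 0.365).

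Immediate early genes outside the members gave 1 call among 19 tested, with 0 higher, where limma called 4.01% of all genes. Of the 19, 7 (36.8%) had an unadjusted limma p under 0.05, against 22.2% of all genes. Id3, an inhibitor of helix-loop-helix factors, fell from 1379, 1369.7 and 1319 in shSCR to 959, 789 and 931 in shARF, by 0.61 on the log2 scale (SE 0.0852, limma, adjusted p = 0.0144). It passed in 12 of 16 alternatives and lost the call without shSCR replicate 1, 2 or 3, with adjusted p of 0.0607, 0.0504 and 0.0604, and with both replicate 2 arrays left out, at 0.0735. Nr4a1, a nuclear receptor of immediate early type, gave 194, 192 and 193 against 157, 147 and 168, groups that did not overlap, at -0.30 ± 0.0671 (limma, adjusted p = 0.0625, and called in 4 of 16 alternatives). Klf2, a zinc finger factor, and Trib1, a pseudokinase, differed by -0.19 and -0.24 and did not pass.

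Among 7 further genes of the dual-specificity phosphatase family and 5 further EGF family ligands limma called 0, where 4.01% of all genes were called. In each list 1 gene had an unadjusted limma p under 0.05, against 22.2% of all genes. Dusp9, an ERK phosphatase related to Dusp6, gave 236, 194 and 209 in shSCR and 339, 259 and 284 in shARF. All shARF arrays were above all shSCR arrays, at 0.46 ± 0.118, or 1.38-fold, a positive difference larger than that of any member (limma, adjusted p = 0.0869). It passed in 5 of 16 alternatives, with adjusted p of 0.0179 to 0.210. Dusp22, Styx and Dusp3 differed by -0.20, 0.13 and 0.12. Of the ligands, Egf was near the detection level, at 13.7, 16.4 and 12.0 against 16.7, 17.1 and 16.8 (limma, adjusted p = 0.216), and Nrg1, Epgn and Nrg2 differed by -0.14, 0.14 and 0.12.

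**Figure D4:**
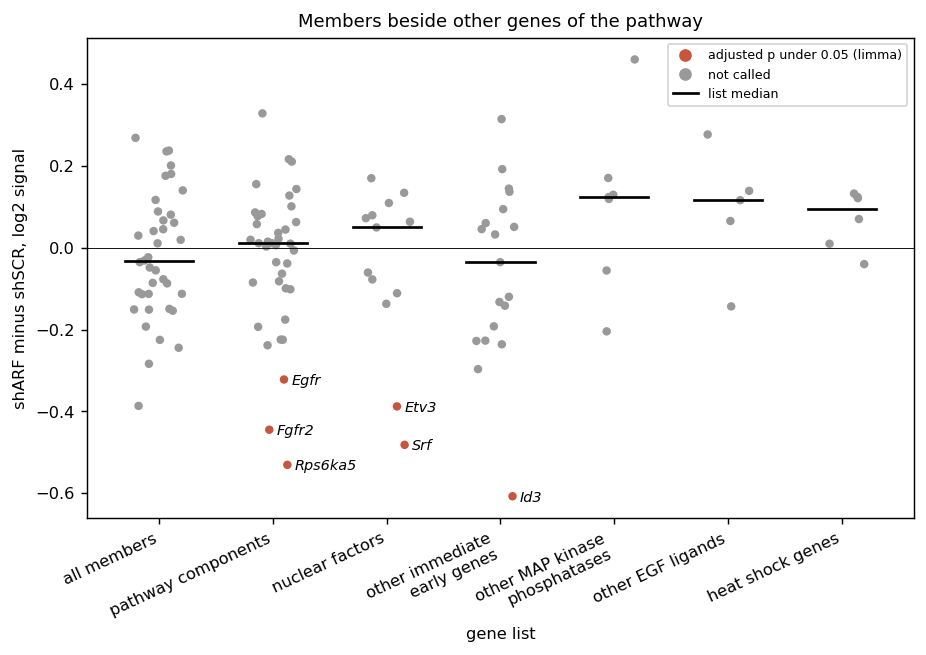
Differences in log2 signal, shARF minus shSCR, of the 38 members beside 6 other gene lists. Each point is 1 gene, bars are list medians, and red points passed limma at an adjusted p under 0.05. The red points are Egfr, Fgfr2, Rps6ka5, Etv3, Srf and Id3, all below 0, and the members hold none. Of all genes tested, 4.01% passed.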

How the data were processed

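The authors deposited 1 linear intensity per probeset and array, which they made with RMA in Affymetrix Expression Console from core probesets, per the submitters' processing notes and the design text. RMA shrinks the folds of dim genes, and its quantile step hides a change common to most genes. Here the deposited intensities were turned to log2. Of 26851 probesets, 21056 carried 1 gene symbol in the platform annotation and were named, 1450 carried several and 4345 none. A probeset was tested if above the 25th percentile of its array on at least 3 arrays, which left 20310. The comparison used limma (version 3.58.1, with R 4.3.3, lmFit and eBayes, two-sided), with Benjamini-Hochberg adjustment over all tested probesets and a threshold of 0.05. The number of arrays limits the precision. SAM used all 20 label arrangements and the median count of false calls. Both were tested on simulated data. Other settings tried were filters, normalization, a pseudocount, a prior with trend, averaged probesets, a replicate block and arrays left out. Members and lists were chosen with earlier results of these data known. Values by array are given for Nras, the 12 members with the smallest p and 1 to 3 members of each role with the highest mean, and up to 4 genes with the smallest p are named of each other list. Further genes, Dusp5 and Sos1 among them, were named for their role after their values were seen.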

Additional observations from a re-analysis of the deposited data

How the results depend on the processing

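Of the 38 members, 30 kept the sign of their difference in every alternative run, 16 for each gene but Dusp2, which the filter at the array median left out. The count of members called was 0 in the chosen setting, in all 6 fits without 1 array, with the replicate number as a block, with no filter, after renewed quantile normalization, with arrays centred on their medians, with all probesets of a gene averaged, and with both replicate 2 arrays left out, which was added once the data had been seen. It was 3 with the filter at the array median (Ereg, Ier2 and Spry2), 1 with log2(value + 16) and 1 in SAM (Ereg in both), and 5 in limma with a trend and robust prior (Ereg, Ier2, Spry2, Plaur and Ccnd1). Over all genes the 607 calls became 372 with no filter, 996 with the filter at the array median, 978 with log2(value + 16), 1281 with the trend, 997 in SAM, 336 with the replicate block, 137 with both replicate 2 arrays left out, and 150 to 330 without 1 array. The cause was not tested, beyond the fewer arrays or genes of some settings. Over all tested probesets, same-numbered arrays hardly deviated together (correlations of 0.078, 0.052 and 0.00062), so the numbers were not taken as pairs. Whether the members alone deviated together by replicate number was not tested.

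Signs changed for 8 members and Nrg2. Etv1 went to 0.0063 with its probesets averaged. With both replicate 2 arrays left out, Etv1 gave 0.046, Egr2 -0.071, Phlda1 0.052, Spry1 -0.061 and Nras -0.040. Over the fits without 1 array, differences ranged from -0.066 to 0.042 for Etv1, -0.095 to 0.090 for Egr2, -0.048 to 0.062 for Tgfa, -0.22 to 0.019 for Dusp5, -0.16 to 0.0091 for Egr1, -0.17 to 0.033 for Phlda1, -0.040 to 0.086 for Spry1, -0.024 to 0.076 for Nras and -0.042 to 0.23 for Nrg2. Among genes named, Epgn was above the detection level on 3 of 6 arrays and Egf on 4, which limits both.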
